A study of Homo sapiens with 6 samples.

Results

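The genes described here encode the glycolytic pathway and the transcriptional response to low oxygen. They were 35 gene symbols listed as glycolytic or hypoxia-inducible, of 35052 genes in the table, and reads were summed over the transcripts of each. By role they comprised 3 membrane transporters (SLC2A1, SLC2A3 and SLC16A3), 17 enzymes from hexokinase to lactate dehydrogenase, 3 regulators of flux (PFKFB3, PFKFB4 and PDK1), 11 hypoxia targets (VEGFA, CA9, BNIP3, BNIP3L, ADM, ANKRD37, EGLN1, EGLN3, NDRG1, P4HA1 and KDM3A) and HIF1A. The cells were EoL-1, a human line established from eosinophilic leukaemia and labelled as an eosinophil, and polyA RNA was sequenced. 3 libraries came from cells labelled ATF3/JUN double knockout and 3 from cells labelled JUN knockout. JUN and ATF3 are leucine zipper transcription factors that can pair to bind DNA. Loss of JUN was thus shared by all 6 libraries, no unedited library was analysed, and the comparison of the groups addressed what loss of ATF3 added. The treatment note of every library gives CRISPR/Cas9 editing and names ATF3 only, no source used here describes the edited alleles, and the labels state no hypoxia treatment. Libraries with the same number in both groups share a clone code in their file names, and each number has its own code, but nothing in the labels says that replicates were separate cultures. All p-values therefore measure only the spread between these libraries.

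Glycolysis splits glucose into pyruvate, and cells such as leukaemia cells often pass much of that pyruvate on to lactate. The transcription factor HIF-1 is a pair of HIF1A and ARNT proteins. In the presence of oxygen its HIF1A subunit is destroyed after prolyl hydroxylases such as those encoded by EGLN1 and EGLN3 have marked it. When oxygen is short HIF-1 persists and raises many glycolytic genes together with genes for blood vessel growth, mitophagy and collagen modification. Its activity is set largely at the protein level, so HIF1A mRNA is not a measure of it.

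The DNA letters that HIF-1 is known to bind lay close to the starts of several members, and 4 promoters with several copies are shown as examples. The motif searched was ACGTG or GCGTG on either strand. The sequences below are from RefSeq on GRCh38.p14, 5′ to 3′ on the strand of the gene. Each is the part of the 250 bases before a RefSeq start that preceded any exon there of transcripts holding at least 1% of the gene's reads. Motif matches are in capitals. On the opposite strand the motif reads CACGT or CACGC, and overlapping matches run together as CACGTG. The PGK1 sequence lies at chrX:78103998-78104173 on the plus strand, that of LDHA at chr11:18394313-18394559 on the plus strand, that of HK2 at chr2:74834920-74835169 on the plus strand and that of BNIP3 at chr10:131982014-131982173 on the minus strand.
PGK1: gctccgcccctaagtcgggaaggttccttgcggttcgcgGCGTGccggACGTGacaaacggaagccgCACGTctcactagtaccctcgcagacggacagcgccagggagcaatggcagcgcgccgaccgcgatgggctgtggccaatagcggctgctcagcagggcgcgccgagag
LDHA: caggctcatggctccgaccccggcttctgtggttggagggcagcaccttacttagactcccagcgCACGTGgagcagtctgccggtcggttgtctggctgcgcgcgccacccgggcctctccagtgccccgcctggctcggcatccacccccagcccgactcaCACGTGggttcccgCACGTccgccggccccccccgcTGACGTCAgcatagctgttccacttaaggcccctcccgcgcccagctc
HK2: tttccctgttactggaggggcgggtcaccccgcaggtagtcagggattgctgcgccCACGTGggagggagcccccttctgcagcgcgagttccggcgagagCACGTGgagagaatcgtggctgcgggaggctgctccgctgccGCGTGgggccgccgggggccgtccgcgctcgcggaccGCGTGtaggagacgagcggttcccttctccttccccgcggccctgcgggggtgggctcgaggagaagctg
BNIP3: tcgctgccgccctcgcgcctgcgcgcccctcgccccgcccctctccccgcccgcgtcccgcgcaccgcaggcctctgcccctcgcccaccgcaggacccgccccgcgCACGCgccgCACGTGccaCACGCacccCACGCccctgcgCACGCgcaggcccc
PGK1 had 3 matches, LDHA 5, and HK2 and BNIP3 6 each. The HK2 sequence lies inside the annotated gene, which starts at 74833981, and an earlier HK2 window, from 74833877, held 3 matches. Other members with several matches were not shown, such as ALDOC with 5 and ANKRD37 with 3. The LDHA sequence also held 1 copy of TGACGTCA, the cyclic AMP response element that ATF proteins are known to bind, likewise in capitals. Over all RefSeq windows of 250 bases, 43.2% of 35116 held ACGTG or GCGTG, against which 35 of the 59 windows of members (59.3%) held it. Promoters were found for 31 of the 35 members and not for SLC2A3, BNIP3L, VEGFA and NDRG1. Of these 31 genes 26 had the motif in at least 1 window, against 47.4% of 27305 genes, and members with many listed starts had more chances to hold it. TGACGTCA was present in 1 member window (1.69%) and in 1.65% of all windows. TGACTCA, the element known to be bound by JUN dimers, was present in 5 member windows (8.47%) and in 4.2% of all windows. Matches of different motifs can share end letters and were counted separately, and a match does not show that a factor was bound.

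The libraries held 26146998 to 29567970 estimated reads. ATF3 mRNA was at 13.1, 10.0 and 7.63 CPM (reads scaled to a common library total) in the double knockout and at 20.2, 13.7 and 8.89 CPM in the JUN knockout, and JUN at 13.8, 16.6 and 25.7 CPM in the double knockout and 13.2, 27.2 and 24.6 CPM in the JUN knockout. Neither passed the test between the groups (edgeR's quasi-likelihood test, adjusted p = 0.931 and 0.974), and since an edited gene can still be transcribed, these levels did not check the edits. Of 11 eosinophil markers, 5 had no reads in any library (CLC, EPX, PRG3, IL5RA and GATA1) and only RNASE2 and RNASE3, at 125 and 22.2 TPM (reads scaled for transcript length and library total), reached 1 TPM, so the labelled cell type was not borne out by its defining markers. Markers of erythroid cells and fibroblasts summed to at most 0.492 and 1.14 TPM. Those of lymphoid cells summed to 174 to 188 TPM in the double knockout and 142 to 157 TPM in the JUN knockout, nearly all of it NKG7 at 159 TPM, with CD3E at 0.

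Glycolytic enzymes were among the abundant mRNAs of these cells. Levels between genes are compared in TPM, as means of 6 libraries. GAPDH, the glyceraldehyde phosphate dehydrogenase, was the highest member at 2602 TPM. Next came ENO1, the main enolase, at 1131 TPM, LDHB, the lactate dehydrogenase subunit of heart type, at 1111 TPM, and ALDOA, the main aldolase, at 703.7 TPM. TPI1, the triose phosphate isomerase, stood at 560.7 TPM, LDHA, the subunit of muscle type, at 480.8 TPM, PGK1, the phosphoglycerate kinase, at 450.6 TPM and PKM, a pyruvate kinase, at 422 TPM. These are sums over transcripts, in which short transcripts weigh more than in reads. TPI1-204, annotated as a retained intron, held 10.0% of the TPI1 reads but 183 to 241 TPM. The place of TPI1 before LDHA, PGK1 and PKM thus depended on that transcript. The 11 enzymes with a mean of at least 100 TPM carried 91.9% to 95.8% of the TPM of all members in a library. The 6 below 100 TPM (HK1, HK2, PFKM, PFKP, ALDOC and ENO2) carried 1.14% to 1.55%. The members span the range from GAPDH to ADM in the plot of levels.

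**Figure D1:**
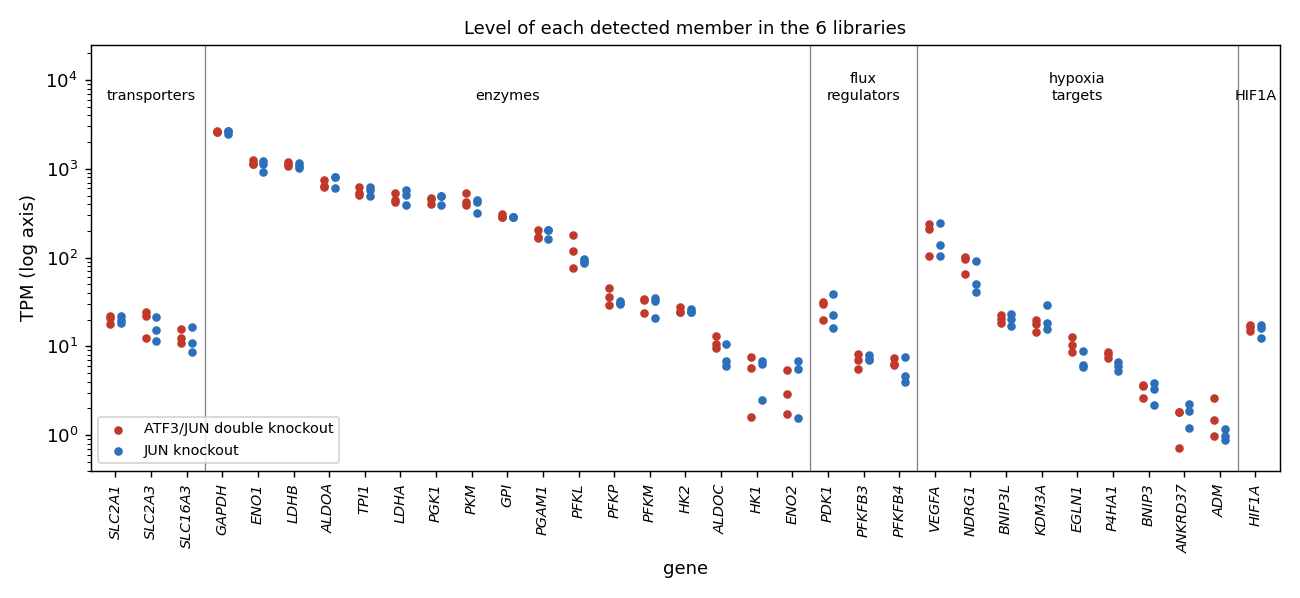
Level of the 33 members with reads, in TPM on a log axis, 1 point per library, with the ATF3/JUN double knockout (red) left of the JUN knockout (blue) for each gene and genes ordered by role and mean level. GAPDH, at 2438 to 2677 TPM, lies highest, and VEGFA, at 103 to 244 TPM, is the highest hypoxia target.

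Where a step has several isoenzymes, 1 usually dominated. Among hexokinases, which trap glucose in the cell, HK2 stood at 25.6 TPM and HK1 at 5.10 TPM. Among phosphofructokinases, the committed step of the pathway, PFKL stood at 108 TPM, PFKP at 34.0 TPM and PFKM at 29.99 TPM. ALDOC, the brain type aldolase, was at 9.49 TPM and ENO2, the neuronal enolase, at 3.99 TPM, both far under ALDOA and ENO1. The glucose transporters SLC2A1 (GLUT1) and SLC2A3 (GLUT3) were at 20.2 and 17.9 TPM, and SLC16A3, the lactate exporter MCT4, at 12.6 TPM. Of the SLC2A1 reads, 66.6% were assigned to SLC2A1-208, annotated for nonsense-mediated decay, and 32.8% to the protein-coding SLC2A1-203. The protein-coding SLC2A3-201 held 89.4% of the SLC2A3 reads. PDK1, the kinase that switches off pyruvate dehydrogenase, led the flux regulators at 26.6 TPM, before PFKFB3 at 7.19 TPM and PFKFB4 at 6.05 TPM, which make and break the activator of phosphofructokinase. Neighbours in such an order could overlap over the 6 libraries, as did SLC2A1 at 18.1 to 22.1 TPM and SLC2A3 at 11.5 to 24.6 TPM.

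The hypoxia targets were lower and more uneven. VEGFA, the vascular growth factor, stood at 173 TPM and NDRG1, a stress-induced gene, at 74.5 TPM. BNIP3L, a mitophagy receptor, was at 20.2 TPM and KDM3A, a histone demethylase, at 19.2 TPM. EGLN1, the main prolyl hydroxylase acting on HIF1A, was at 8.76 TPM and P4HA1, a collagen prolyl hydroxylase, at 7.02 TPM. BNIP3, the relative of BNIP3L, was at 3.21 TPM, ANKRD37, an ankyrin repeat protein, at 1.62 TPM and ADM, the vasodilator peptide adrenomedullin, at 1.35 TPM. CA9, the carbonic anhydrase often used as a marker of hypoxia, and EGLN3, another HIF prolyl hydroxylase, had 0 reads in all 6 libraries. At the 95% level, 0 reads in 1 library still allow an expected count of up to 3. CA9 and EGLN3 were not tested, and the other 33 members passed the filter on low counts. HIF1A itself was at 15.8 TPM.

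PKM makes 2 enzymes by choosing 1 of 2 coding exons of 167 bases on chromosome 15 (GRCh38, minus strand), the PKM1 exon at 72203022 to 72203188 and the PKM2 exon at 72202454 to 72202620. PKM2 is the form known from growing and tumour cells. Of reads assigned to transcripts with either exon, PKM1 took 5.22% (Wilson interval, 95% level, 4.88% to 5.58%), 5.50% (5.14% to 5.88%) and 5.50% (5.22% to 5.79%) in double knockout replicates 1, 2 and 3. It took 8.24% (7.78% to 8.73%), 5.51% (5.21% to 5.82%) and 4.78% (4.50% to 5.07%) in JUN knockout replicates 1, 2 and 3. PKM2 was thus the main form in every library, and JUN knockout replicate 1 stood above the other 5. The means, 5.403% ± 0.16 in the double knockout and 6.17% ± 1.83 in the JUN knockout (SD, n = 3 each), differed by less than the spread between libraries (exact two-sided permutation test, p = 0.7, where 3 against 3 cannot give a p below 0.1). The intervals cover counting error only, not the assignment of shared reads to transcripts.

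Across the 6 libraries the abundant enzymes moved together. All 11 enzymes of at least 100 TPM had their lowest CPM in JUN knockout replicate 1, as did 14 of all 17 enzymes, while 24.5% of the 12954 tested genes had their lowest value there. 10 of the 11, all but PFKL, had their 3 lowest values in double knockout replicates 1 and 2 and JUN knockout replicate 1, a pattern held by 18.6% of tested genes. This describes the libraries and is no test, and in bulk RNA fewer cells of a type cannot be told apart from less RNA per cell.

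LDHA, which turns pyruvate into lactate, was at 569, 543 and 733 CPM in double knockout replicates 1, 2 and 3, and at 487, 733 and 853 CPM in JUN knockout replicates 1, 2 and 3. PKM was at 684, 655 and 972 CPM in the double knockout and 540, 851 and 911 CPM in the JUN knockout. PGK1 was at 343, 353 and 428 CPM in the double knockout and 289, 428 and 467 CPM in the JUN knockout. In all 3 genes the groups overlapped and JUN knockout replicate 1 was lowest. The ratio of highest to lowest library was 1.80 for PKM, 1.75 for LDHA and 1.62 for PGK1, and 1.201 to 1.54 for the other 8 abundant enzymes. GAPDH, often taken as a constant gene, had 3245, 3052 and 3315 CPM in the double knockout and 2800.5, 3360 and 3406 CPM in the JUN knockout. 6 LDHA pseudogenes named in the annotation summed to 16.1 CPM, and those of GAPDH to 1.54 CPM.

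**Figure D2:**
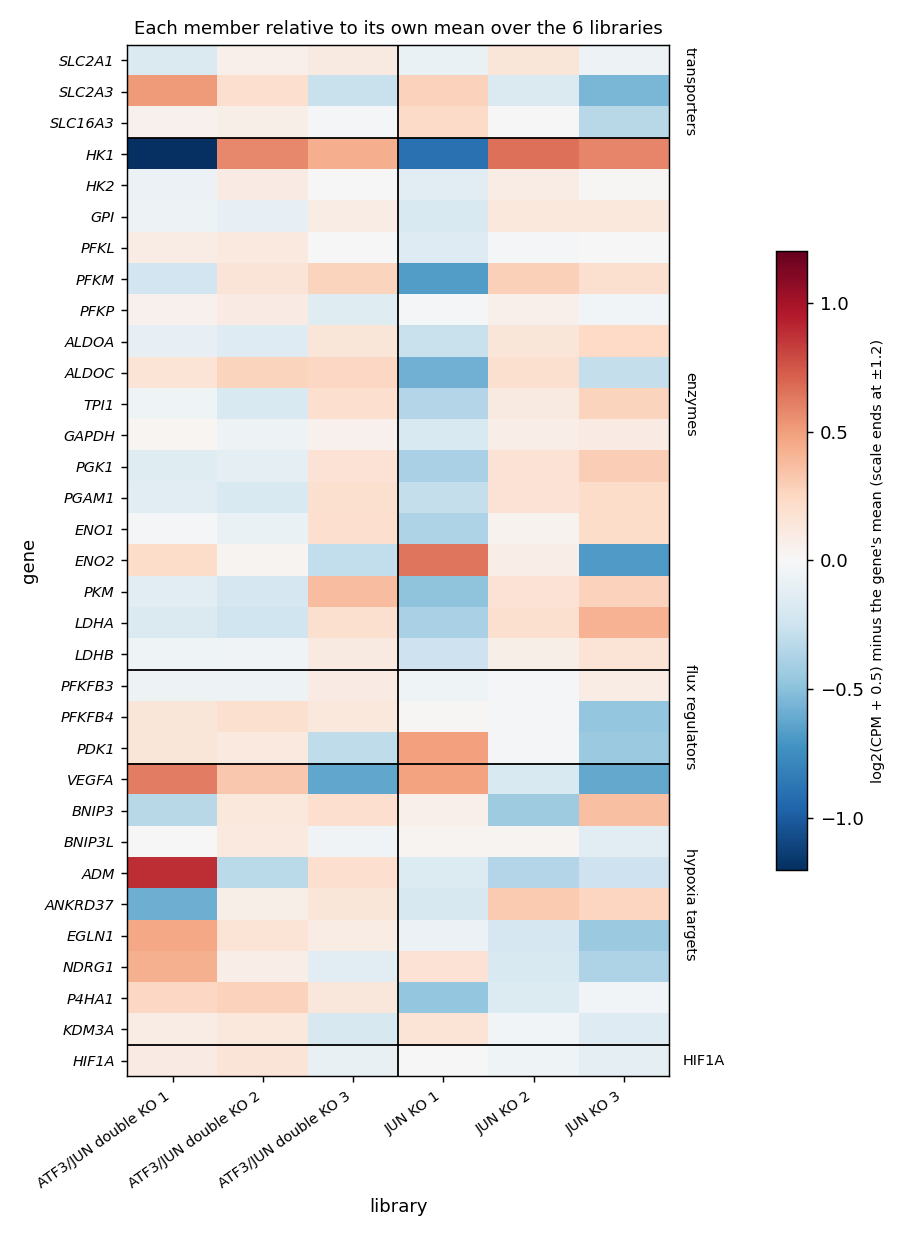
Difference of each of the 33 tested members from its own mean over the 6 libraries, as log2(CPM + 0.5), with the ATF3/JUN double knockout libraries left of the JUN knockout libraries and genes ordered by role. Most enzymes are below their mean (blue) in JUN knockout replicate 1, HK1 is lowest in both number 1 libraries, and VEGFA and SLC2A3 are above their means (red) in those libraries.

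The hypoxia targets were high and low in partly other libraries than the enzymes. Taken as the median over members of log2(CPM + 0.5) minus the member's own mean, the 9 tested hypoxia targets were at 0.24, 0.12 and 0.087 in double knockout replicates 1, 2 and 3 and at 0.032, −0.18 and −0.15 in JUN knockout replicates 1, 2 and 3. The 17 enzymes were at −0.061, −0.064 and 0.17 in the double knockout and at −0.28, 0.13 and 0.19 in the JUN knockout. The enzymes were thus lowest where the targets were at an intermediate value. The targets lay above their mean in all 3 double knockout libraries and in JUN knockout replicate 1. The enzymes did so in double knockout replicate 3 and JUN knockout replicates 2 and 3, so both were above in double knockout replicate 3. All tested genes together stayed between −0.00052 and 0.010 on the same scale. 7 of the 33 tested members (SLC2A3, SLC16A3, PDK1, VEGFA, NDRG1, KDM3A and HIF1A) had their 3 highest values in the libraries where 10 abundant enzymes had their 3 lowest, which is near the 17.8% of all tested genes that did. Only 3 of the 9 tested hypoxia targets were among the 7, and ANKRD37 had its 3 lowest values there, like those enzymes.

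**Figure D3:**
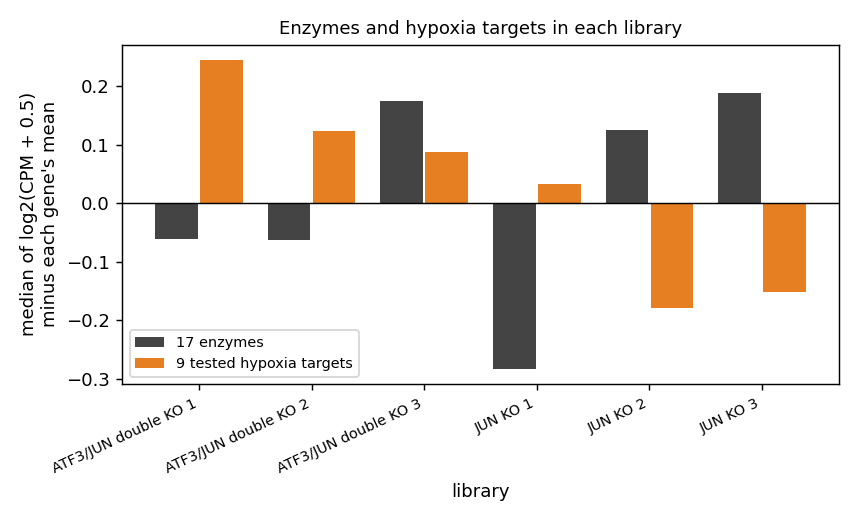
Median over the 17 enzymes (dark bars) and over the 9 tested hypoxia targets (orange bars) of log2(CPM + 0.5) minus each gene's mean, by library, with the ATF3/JUN double knockout left of the JUN knockout. The enzyme median runs between −0.28 and 0.19, and the target median between −0.18 and 0.24.

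Markers of blood cell types were also uneven over the libraries. The 5 monocyte markers summed to 116, 179 and 311 TPM in double knockout replicates 1, 2 and 3 and to 89.8, 276 and 262 TPM in JUN knockout replicates 1, 2 and 3, chiefly LYZ, the lysozyme of myeloid cells, with FCGR3A at 0 and CD14 at 0.102 TPM on average. The 11 eosinophil markers summed to 149, 121 and 186 TPM in the double knockout and 70.8, 166 and 195 TPM in the JUN knockout. Both sums were lowest in JUN knockout replicate 1, as were the abundant enzymes, and rested mainly on LYZ and RNASE2. RNASE3 and VCAN, a monocyte marker, were also lowest in JUN knockout replicate 1. RNASE3 was at 10.35 TPM there and 18.4 to 30.5 TPM elsewhere, and VCAN at 5.37 TPM there and 12.5 to 17.1 TPM elsewhere. CSF1R, another monocyte marker, was instead at 8.34, 12.9 and 12.0 TPM in the double knockout and 9.47, 9.43 and 7.33 TPM in the JUN knockout, lowest in JUN knockout replicate 3. The 6 lymphoid markers summed to 174, 175 and 188 TPM in the double knockout and 157, 142 and 148 TPM in the JUN knockout, with JUN knockout replicate 1 the highest of its group. The part of these cell types in the enzyme levels was not tested.

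3 members differed between replicate numbers. The labels give only the numbers, and the clone code shared by libraries of 1 number is known from file names alone. With the group in the model, edgeR's quasi-likelihood test between numbers 1, 2 and 3 called HK1, VEGFA and SLC2A3 at an adjusted p under 0.05, 3 of 33 tested members, where 1.75% of all 12954 genes were called. At an unadjusted p under 0.05 it took 15 of 33 members (45.5%), where it took 20% of all genes. Of the 15, 10 were enzymes, 3 hypoxia targets, 1 a transporter and 1 a flux regulator. limma-voom called 1.25% of all genes, and DESeq2 6.99% and 9 members, adding PFKM, PGK1, PKM, LDHA, PDK1 and NDRG1. Leaving out double knockout replicate 1 gave 15 members and 2634 genes, leaving out JUN knockout replicate 1 gave 5 and 644, leaving out JUN knockout replicate 2 gave 4 and 408, leaving out double knockout replicate 3 gave 1 and 141, and an offset for transcript length gave 1 and 61, with HK1 the 1 member called in both of the last settings. Without JUN knockout replicate 3, and without the group term, 2 members were called. Each fit without 1 library left that number with 1 library only, so it had no replication within that number. A clone code and anything else shared by libraries of 1 number, such as a day of work, cannot be told apart.

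HK1 (ENSG00000156515, chromosome 10, 69269984 to 69401884, plus strand, GRCh38) showed the largest spread of all members. It was at 6.19, 25.4 and 23.0 CPM in double knockout replicates 1, 2 and 3, and at 8.82, 26.8 and 25.6 CPM in JUN knockout replicates 1, 2 and 3. Both number 1 libraries were low and the other 4 lay close together, so the numbers did not overlap and the groups did. Number 2 exceeded number 1 by 1.81 (SE 0.15) and number 3 exceeded number 1 by 1.70 (SE 0.15) on the log2 scale (edgeR adjusted p = 0.00592), while numbers 3 and 2 differed by −0.11 (SE 0.14). HK1-202, a protein-coding transcript, held 96.8% of the HK1 reads. The 21 tested genes within 1 Mb of HK1 included no other called gene, and their median differences were 0.011 for number 2 and 0.12 for number 3 over number 1. HK2, the more abundant hexokinase, was at 151, 169 and 159 CPM in the double knockout and 144, 169 and 160 CPM in the JUN knockout, differing by 0.19 (SE 0.09) between numbers 2 and 1 (edgeR adjusted p = 0.461).

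VEGFA (ENSG00000112715, chromosome 6, 43770184 to 43786487, plus strand) was at 676, 552 and 287 CPM in double knockout replicates 1, 2 and 3, and at 619, 391 and 289 CPM in JUN knockout replicates 1, 2 and 3. In both groups the number 1 library was highest and the number 3 library lowest. Number 3 was below number 1 by 1.17 on the log2 scale (SE 0.13), and number 2 by 0.47 (SE 0.13; edgeR adjusted p = 0.0216). Transcripts annotated as retained introns took 44.5% to 48.5% of VEGFA reads across libraries, while the level of the gene differed 2.36-fold between the highest and the lowest library. SLC2A3 (ENSG00000059804, minus strand of chromosome 12, 7919230 to 7936275) had 89.9, 72.3 and 52.2 CPM in the double knockout and 76.5, 55.8 and 42.7 CPM in the JUN knockout. It too was highest in number 1 and lowest in number 3 of each group, with number 3 below number 1 by 0.81 (SE 0.10; edgeR adjusted p = 0.0232). Its near-identical relative SLC2A14 was at 0.208 CPM. Without double knockout replicate 3 the adjusted p was 0.0783 for VEGFA and 0.112 for SLC2A3, and without JUN knockout replicate 3 it was 0.0869 for SLC2A3, while HK1 kept its call in all 13 alternatives (highest adjusted p = 0.0321).

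No other member passed between numbers, and the values of those with the next lowest p and of ENO2 follow. NDRG1 was at 139, 109 and 94.97 CPM in the double knockout and 117, 91.2 and 79.8 CPM in the JUN knockout (edgeR adjusted p = 0.0587). PDK1 was at 102, 100 and 74.5 CPM in the double knockout and 130, 91.2 and 67.7 CPM in the JUN knockout (edgeR adjusted p = 0.0870). Both were highest in number 1 and lowest in number 3 of each group, as were VEGFA and SLC2A3. PFKM was at 59.4, 77.6 and 84.1 CPM in the double knockout and 43.8, 85.1 and 79.5 CPM in the JUN knockout, lowest in number 1 like HK1 (edgeR adjusted p = 0.0776). PFKM overlaps SENP1 on the other strand, and no source used here says whether strand was used in counting. ENO2, of low level, was at 6.75, 5.88 and 4.56 CPM in the double knockout and 9.22, 6.08 and 3.39 CPM in the JUN knockout, with number 3 below number 1 by 1.00 (SE 0.24; edgeR adjusted p = 0.139). As a group, 15 of 17 enzymes had number 3 above number 1, with a median of 0.37, while 6 of 9 hypoxia targets had it below, with a median of −0.30, where the median of all genes was −0.0020.

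**Figure D4:**
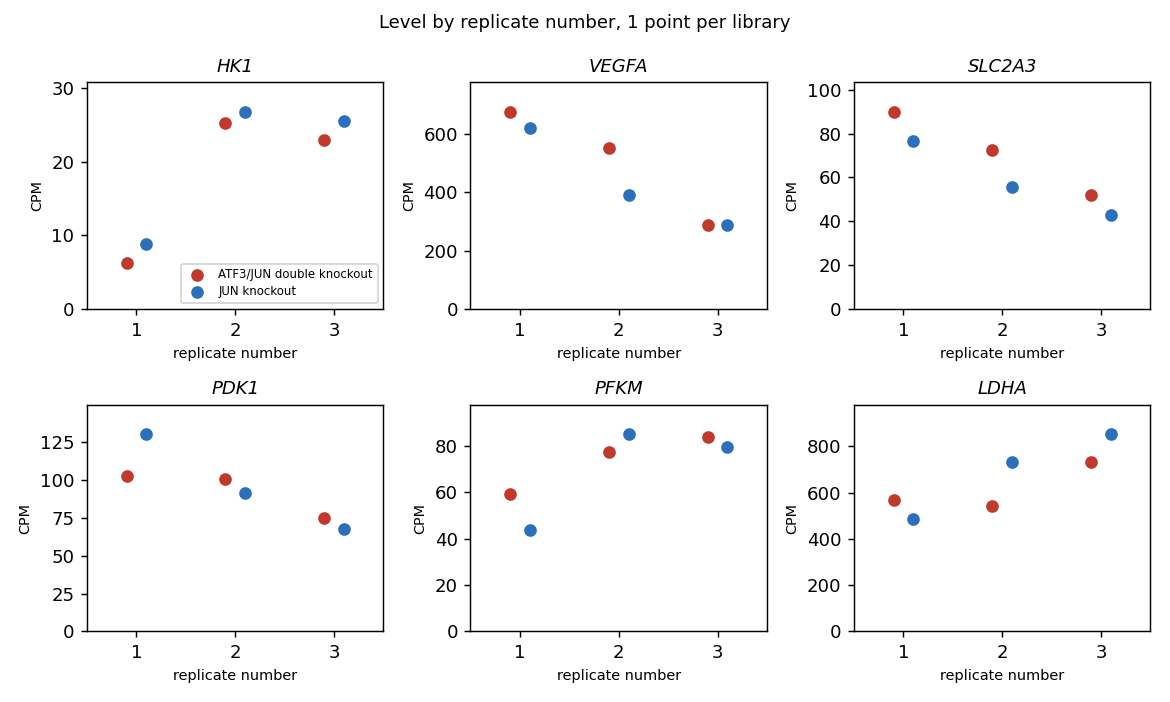
CPM of HK1, VEGFA, SLC2A3, PDK1, PFKM and LDHA by replicate number, 1 point per library, with the ATF3/JUN double knockout (red) left of the JUN knockout (blue) and axes starting at 0. HK1 stands at 6.19 and 8.82 CPM in number 1 and at 23.0 to 26.8 CPM in the others, and VEGFA is at 287 and 289 CPM in number 3.

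Between the double knockout and the JUN knockout no member passed the test. edgeR's quasi-likelihood test called 0 of 33 members and 0 of 12954 genes (0% of all genes, lowest adjusted p = 0.397), with 753 genes (5.81%) and 2 members, EGLN1 and P4HA1, at an unadjusted p under 0.05. With the replicate number as a block it again called no gene (0%), with 9.79% of genes and 6 members (EGLN1, SLC2A3, P4HA1, NDRG1, ALDOC and PFKFB4) at an unadjusted p under 0.05. DESeq2 called 71 genes (0.548%) and limma-voom 4 (0.0309%), among them no member. The enzymes centred on no difference, with 9 above 0 and 8 below and a median log2 fold change of 0.00097, where all genes had a median of 0.0032. Within number pairs 1, 2 and 3 the enzyme medians were 0.21, −0.13 and −0.035, so the pairs did not share a direction. The 9 tested hypoxia targets had 7 above 0 and 2 below and a median of 0.22, with medians of 0.13, 0.26 and 0.092 within number pairs 1, 2 and 3. That median was 0.088 without double knockout replicate 1, 0.37 without double knockout replicate 3 and 0.071 with both number 2 libraries left out. A further list of 27 tested hypoxia targets, described below, had 19 above 0 and 8 below and a smaller median of 0.074.

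EGLN1 (ENSG00000135766, minus strand of chromosome 1, 231363751 to 231425044) had 45.8, 37.0 and 35.1 CPM in double knockout replicates 1, 2 and 3, and 31.5, 28.7 and 24.1 CPM in JUN knockout replicates 1, 2 and 3. The 3 double knockout libraries lay above all 3 JUN knockout libraries. The log2 fold change was 0.48 (SE 0.14), positive in 3 of 3 pairs of the same number, with an edgeR adjusted p of 0.789. P4HA1 was at 24.5, 25.02 and 22.8 CPM in the double knockout and 14.8, 18.3 and 20.2 CPM in the JUN knockout, again without overlap. Its log2 fold change was 0.44 (SE 0.13; edgeR adjusted p = 0.789). The groups also did not overlap for PFKFB4 and PFKL, so 4 members were higher in every double knockout library and 0 lower in every one, where 6.31% of all genes were higher and 5.94% lower in that way. PFKL was all but tied, at 145.196 CPM in double knockout replicate 3 and 145.186 CPM in JUN knockout replicate 3. Over pairs, 9 members were higher and 2 lower in the double knockout in 3 of 3, where 18% and 15.1% of all genes were. PFKL was among these 9 with a log2 difference of 9.4e-05 in pair 3.

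PFKFB4 was at 16.3, 16.9 and 16.1 CPM in the double knockout and 14.8, 14.4 and 10.5 CPM in the JUN knockout (log2 fold change 0.31, SE 0.15; edgeR adjusted p = 0.889). Without JUN knockout replicate 3 it was 0.17. ALDOC was at 15.1, 16.3 and 16.05 CPM in the double knockout and 8.86, 15.4 and 10.97 CPM in the JUN knockout, where replicate 2 reached the double knockout (log2 fold change 0.43, SE 0.20; edgeR adjusted p = 0.887). That estimate was 0.26 without JUN knockout replicate 1 and 0.67 without JUN knockout replicate 2. ADM had the largest fold change, 0.75 (SE 0.38; edgeR adjusted p = 0.893), but it was at 3.82, 1.36 and 2.19 CPM in the double knockout and 1.58, 1.33 and 1.46 CPM in the JUN knockout, so double knockout replicate 1 stood apart and the groups overlapped. Without that library the ADM log2 fold change was 0.29.

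For the other leading genes the groups overlapped. Log2 fold changes were 0.29 (SE 0.26) for SLC2A3, 0.22 (SE 0.37) for VEGFA and −0.060 (SE 0.24) for PDK1, with edgeR adjusted p of 0.95, 0.974 and 0.987. SLC2A3 was higher in the double knockout in 3 of 3 pairs of the same number (0.23, 0.37 and 0.29), and with the replicate block its estimate was 0.30 (SE 0.08; edgeR adjusted p = 0.375). Its unpaired estimate was 0.094 or 0.48 when double knockout replicate 1 or 3 was left out, and 0.54 or 0.11 when JUN knockout replicate 1 or 3 was. VEGFA was at −0.046 without double knockout replicate 1, at 0.14 and 0.00078 without JUN knockout replicates 2 and 3, and at 0.50 when double knockout replicate 3, or 0.57 when JUN knockout replicate 1, was left out. For NDRG1 edgeR estimated 0.25 (SE 0.19) on the log2 scale (adjusted p = 0.939), with 0.25, 0.26 and 0.25 in the 3 pairs and 0.25 with the block (SE 0.08; edgeR adjusted p = 0.404). Its unpaired estimate was 0.088 when double knockout replicate 1 was left out, and 0.42 or 0.14 when JUN knockout replicate 1 or 3 was. SLC2A1 averaged 55.8 ± 5.64 CPM in the double knockout and 56.0 ± 4.84 CPM in the JUN knockout, and GAPDH 3204 ± 136 CPM in the double knockout and 3189 ± 337 CPM in the JUN knockout (SD, n = 3 each). HIF1A was at 54.4, 56.5 and 47.8 CPM in the double knockout and 51.2, 49.0 and 47.0 CPM in the JUN knockout (log2 fold change 0.11, SE 0.09; edgeR adjusted p = 0.95), between 0.059 (double knockout replicate 2 left out) and 0.18 (double knockout replicate 3 left out). Of the enzymes, LDHA had the most negative estimate, −0.17 (SE 0.22), with a positive one of 0.012 when JUN knockout replicate 3 was left out. ANKRD37, at 0.829 ± 0.337 CPM in the double knockout and 1.06 ± 0.285 CPM in the JUN knockout, had the lowest estimate of all members, −0.35 (SE 0.39). It overlaps UFSP2 on the other strand.

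**Figure D5:**
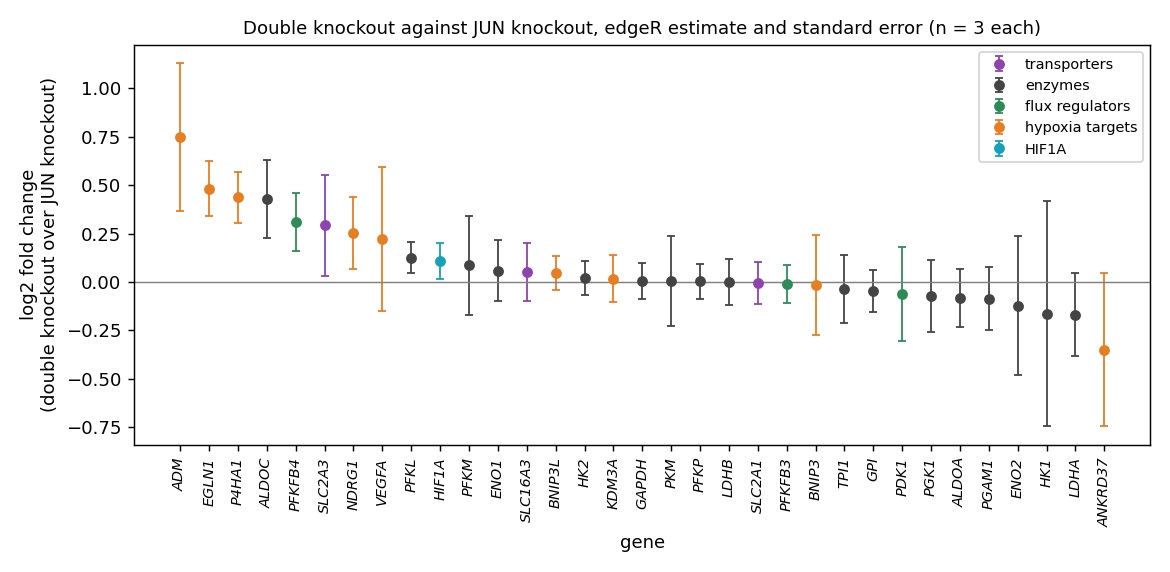
Log2 fold change of the 33 tested members, ATF3/JUN double knockout over JUN knockout, as edgeR estimated it (points) with its standard error (bars), coloured by role. Estimates run from −0.35 for ANKRD37 to 0.75 for ADM, and none passed the test at an adjusted p of 0.05.

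Genes beside the main pathway were examined in 5 further lists. Between the groups none of the tested genes of any list passed edgeR's test, 1 of them (PGD) had an unadjusted p under 0.05, and DESeq2 and limma-voom called none. Between numbers none passed among 8 tested genes of other glycolytic steps, 12 of pyruvate entry into mitochondria, 9 of the pentose phosphate pathway and 14 of the HIF machinery (1 of them, RPIA, at an unadjusted p under 0.05, and none called by DESeq2), while 3 of 27 other hypoxia targets passed, where 1.75% of all genes did. Other glycolytic genes were modest in level, led by ADPGK, the ADP-dependent glucokinase, at 65.2 TPM, and isoenzymes of other tissues such as PKLR and LDHC had no reads. Of these, SLC16A7, a pyruvate carrier, had the lowest group p (log2 fold change 0.35, SE 0.19, edgeR adjusted p = 0.903) and SLC16A1, the lactate carrier MCT1, the lowest p between numbers (edgeR adjusted p = 0.291). PDHA1, a subunit of pyruvate dehydrogenase, led its list at 174 TPM, and PDP2, the phosphatase that opposes PDK1, had its lowest group p (0.21, SE 0.12, edgeR adjusted p = 0.901). PDK4 had no reads.

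In the pentose phosphate pathway TKT, the transketolase, stood at 622 TPM. PGD, which makes NADPH, was at 382, 311 and 326 CPM in double knockout replicates 1, 2 and 3 and 299.7, 288 and 279.7 CPM in JUN knockout replicates 1, 2 and 3. Those groups did not overlap (log2 fold change 0.23, SE 0.10), but the edgeR adjusted p was 0.859. RPIA, the ribose phosphate isomerase, had the lowest p between numbers (edgeR adjusted p = 0.131). Among the HIF machinery, ELOB, a subunit of the ubiquitin ligase that removes HIF1A, led at 238 TPM, and ARNT, the partner of HIF1A, was at 18.3 TPM. EPAS1, which encodes HIF2A, was at 0.161 TPM. ELOC, another subunit of the ligase, had the lowest group p (log2 fold change −0.17, SE 0.11, edgeR adjusted p = 0.931), and CREBBP, a coactivator, the lowest between numbers (edgeR adjusted p = 0.254).

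The 3 other hypoxia targets that differed between numbers were DDIT4, VLDLR and TFRC. DDIT4, an inhibitor of mTOR signalling that also responds to other stresses, was at 338, 296 and 113 CPM in the double knockout and 254, 170.5 and 88.3 CPM in the JUN knockout (edgeR adjusted p = 0.0068). VLDLR, a lipoprotein receptor, was at 210.0, 168 and 101.5 CPM in the double knockout and 188, 135 and 100.4 CPM in the JUN knockout (edgeR adjusted p = 0.0198). Both were highest in number 1 and lowest in number 3 of each group, like VEGFA and SLC2A3. TFRC, the transferrin receptor for iron uptake, was at 156, 198.5 and 302 CPM in the double knockout and 172, 215 and 302 CPM in the JUN knockout, lowest in number 1 and highest in number 3 (edgeR adjusted p = 0.0162). BHLHE40, a transcription factor, had the lowest group p of this list, at 77.0, 63.8 and 56.9 CPM in the double knockout and 62.9, 40.8 and 40.2 CPM in the JUN knockout (log2 fold change 0.46, SE 0.20; edgeR adjusted p = 0.886).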

How the data were processed

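PolyA RNA of EoL-1 cells was sequenced in 6 libraries with a stranded Illumina kit, per the labels' protocols. Per the submitters' processing notes the authors used FastQC 0.11.9 and Salmon 1.6.0 on hg38. Each deposited file lists, per the file headers, transcripts with their estimated count and their TPM. Index release and strand setting were not given in the sources used.

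Transcripts were joined to GENCODE release 29 by Ensembl identifier, and 167027 of 177456 matched (94.1%). The others held 3.58% to 3.71% of a library's estimated reads and were left out. Both values were summed per gene, and counts were then rounded. edgeR 4.0.16 (R 4.3.3; filterByExpr, TMM, robust quasi-likelihood F test, two-sided, Benjamini-Hochberg over 12954 genes, threshold 0.05) compared the groups with the group as single term, and the replicate numbers with group and number as terms. CPM was scaled by TMM, and 0.5 was added before taking logs. Alternatives included DESeq2 1.42.0 and voom in limma 3.58.1. Scripts were tested on simulated data, where both comparisons made more false calls than the nominal share, that between numbers more so. The closest 2 libraries, double knockout replicates 1 and 2, gave a chi-square of 12.3 per gene, so none was counted as a repeat. Libraries of the same number gave 22.3, 30.4 and 14.3 for numbers 1, 2 and 3, and JUN knockout replicates 2 and 3 gave 13.5.

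Replicate numbers were treated as pairs because of the shared clone codes in the file names. Deviations from the group means correlated between same-numbered libraries for numbers 1 and 3 (r = 0.387 and 0.523), but hardly for number 2 (0.103). Double knockout replicate 2 correlated more with JUN knockout replicate 1 (0.201), and double knockout replicate 3 with JUN knockout replicate 2 also gave 0.103. The pairing of number 2 thus rested on the file names.

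The members and lists were chosen with earlier results of these data known. Named by rule were members past a threshold, the highest TPM and lowest p of each role list, the 5 largest spreads over libraries, untested members and, in the other lists, the highest TPM, lowest p and passing genes. P4HA1, PFKL, LDHA, PKM, PGK1, HK2, PFKM, NDRG1, ANKRD37, ARNT and EPAS1 were given values after these had been seen. No sequence of proteins was used here.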

Additional observations from a re-analysis of the deposited data

How the results depend on the processing

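Between the groups, edgeR's count of 0 genes became 71 with DESeq2, 4 with limma-voom, 1 without the low-count filter and 1 with both number 3 libraries left out. With the replicate number as a block it was 0, with 1268 genes at an unadjusted p under 0.05, the enzyme median was 6.5e-05 and the target median 0.205, and no call changed. Leaving out 1 library gave 0 in every case. No member was called under any of 16 alternatives. The enzyme median stayed between −0.14 and 0.058 when 1 library was left out. The target median, 0.22, was 0.071 with both number 2 libraries left out and between 0.088 (double knockout replicate 1 left out) and 0.37 (double knockout replicate 3 left out) with 1 fewer library. Its direction held in all 16. VEGFA turned to −0.046 without double knockout replicate 1, LDHA to 0.012 without JUN knockout replicate 3 (range −0.37 to 0.012), and HK1 to 0.24, 0.079 and 0.031 without double knockout replicate 1 and JUN knockout replicates 2 and 3 (range −0.52 to 0.24). EGLN1 stayed between 0.36 and 0.60 and P4HA1 between 0.31 and 0.57, with adjusted p of at least 0.231 and 0.359.

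Between numbers, 227 genes became 905 with DESeq2, 686 without the filter and 61 with an offset for transcript length. Leaving out 1 library gave from 141 genes when this was double knockout replicate 3 up to 2634 when it was double knockout replicate 1, with 644 without JUN knockout replicate 1 and 408 without JUN knockout replicate 2. The 3 members became 9, 6 and 1 (HK1) under the first 3 of these, and ranged from 1 (HK1) to 15 for these same libraries. VEGFA and SLC2A3 also lost their calls under the length offset (adjusted p = 0.0726 and 0.108), and SLC2A3 without the group term (0.0929). Fits without 1 library had only 1 library of its number left, so they did not compare replicated numbers. The cause of these shifts was not tested. CA9 and EGLN3 had 0 reads and were not tested.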
